A study of Homo sapiens with 12 samples.

Results

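CDS m6A peaks are stretches of protein-coding sequence in which RNA pulled down with an antibody against N6-methyladenosine (m6A) exceeded the input RNA. Every peak that the authors annotated as CDS was taken, which gave 6066 of 14586 peaks. HSC3 and CAL33, established human oral squamous cell carcinoma (OSCC) lines, were cultured without rapamycin (control) or with 100 nM rapamycin, an mTOR inhibitor used to induce autophagy, for 3 days. For MeRIP-seq, each line under each treatment gave 1 immunoprecipitated library and 1 input, hence 4 peak lists and no replicate within a line. RNA-seq gave 4 libraries, 2 with rapamycin and 2 controls, numbered 1 and 2. The labels place both rapamycin RNA-seq libraries in HSC3 and both controls in CAL33, whereas in MeRIP-seq number 1 marks HSC3 and number 2 marks CAL33, so the cell line behind an mRNA value is uncertain. Neither line carries an engineered allele by the labels, and each treatment stands on a single MeRIP-seq sample of each line.

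m6A is written co-transcriptionally on mRNA by a complex built around METTL3 and METTL14 with WTAP, VIRMA, ZC3H13 and RBM15. It is removed by FTO and ALKBH5 and read by YTH-domain proteins, of which YTHDF2 is known for directing transcripts to decay. m6A is typically dense near stop codons and in long internal exons, so coding sequence and 3′ UTR are its main compartments. Only the sequence of 5′ promoter windows, not of coding exons, was at hand, so no peak sequence is shown and no motif was searched.

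RNA-seq totals ranged from 18492273 to 23763098 counts, and same-numbered libraries resembled each other (r = 0.97 and 0.96 over log2 counts scaled to library size, CPM) more than the other pairs (0.76 to 0.81). Of the squamous markers, desmosomal DSP was between 469 and 856 CPM in all 4 libraries. Basal keratin KRT5 was 6.10 and 327 CPM with rapamycin and 34.2 and 1703 CPM in control replicates 1 and 2, and KRT14 was at 0 in both libraries of number 1. In the mRNA fit blocked by number, KRT5, KRT14 and KRT6A of the 10 squamous markers were lower with rapamycin and none was higher. The summed level of the 10 squamous markers was 1396 to 1768 CPM in number 1 and 4170 to 5865 in number 2. None of the 5 immune markers and 3 of the 6 fibroblast markers had enough counts to be tested. The latter summed to between 8.79 and 46.7 CPM, and the 3 of 4 endothelial markers tested summed to between 1.42 and 45.4 CPM. These values are from RNA-seq alone. In MeRIP-seq the immune marker CD14 had 1 CDS peak, in HSC3 control cells (fold 33.6).

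The CDS lists were of similar size in HSC3 and smaller with rapamycin in CAL33. HSC3 held 1622 CDS peaks on 1259 genes without rapamycin and 1635 on 1283 genes with it. CAL33 held 1546 on 1169 genes without rapamycin and 1263 on 1020 genes with it. The whole CAL33 list went from 3625 to 3079 peaks and its 3′ UTR peaks from 1343 to 1145, and the CDS share was 42.6% and 41.0%. In all, 2704 genes carried a CDS peak in at least 1 list and 230 genes did so in all 4 lists. Between 17.2% and 20.3% of the genes of a list carried more than 1 CDS peak, and between 13.3% and 15.4% also carried a 3′ UTR peak in the same list. Of the CDS peaks, 6048 lay in genes with a protein-coding biotype. Within a list, most genes with a CDS peak thus carried only 1, and most had no 3′ UTR peak beside it.

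CDS peaks were not stronger than 3′ UTR peaks. The authors' fold enrichment, the ratio of immunoprecipitated RNA to input, had a CDS median of 33.6 in HSC3 control, 32.8 in HSC3 rapamycin, 38.3 in CAL33 control and 34.8 in CAL33 rapamycin cells. The 3′ UTR medians were 34.3, 35.5, 51.1 and 37.5 in the same order. The CDS median was lower in 4 of 4 lists, with a mean log2 difference of −0.17 ± 0.17 (SD, n = 4 lists) and an exact two-sided sign-flip permutation p of 0.13, the smallest that 4 lists can give. The test therefore could not pass 0.05. The lists are also not independent, because they share cell lines and treatments. The spread within a list was far wider than the difference between classes, with CDS quartiles of 11.2 and 107 in HSC3 control cells and 13.4 and 85.7 in CAL33 rapamycin cells. Without CAL33 control the mean log2 difference was −0.084, so much of it rested on that list. In the list order above, 12.1%, 6.97%, 5.69% and 5.07% of the CDS peaks had a false discovery rate of more than 0.05.

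**Figure D1:**
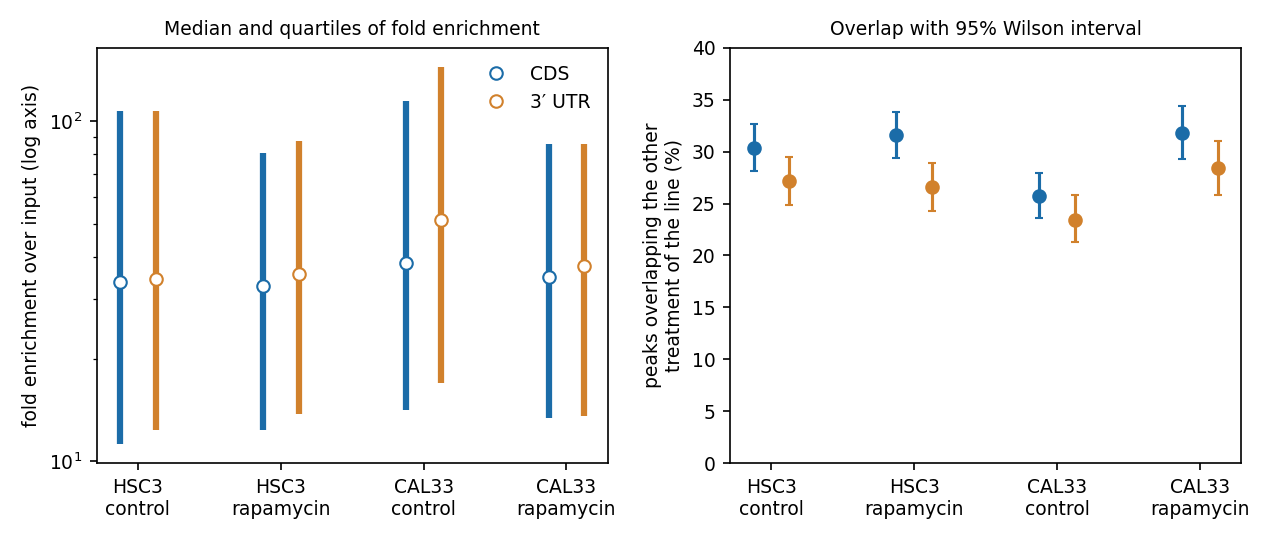
Left, fold enrichment over input (log axis) of CDS and 3′ UTR peaks in each of the 4 lists, with open circles for the median and bars for the quartiles. Right, percent of peaks that overlap a peak of the other treatment in the same cell line, with 95% Wilson intervals. The CDS median lies below the 3′ UTR median in 4 of 4 lists, and the CDS overlap lies above the 3′ UTR overlap in 4 of 4 lists.

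CDS peaks had nearly the same median length as 3′ UTR peaks and crossed splice junctions more often. The median length over exonic blocks was 210 or 211 bp for either class in every list, and the difference in log2 length averaged 0.0034 ± 0.0040 (SD, n = 4 lists, exact two-sided sign-flip permutation p = 0.5). CDS peaks ran from 116 to 1319 bp, and between 13.1% and 14.2% of a list's CDS peaks were longer than 300 bp, against 10.8% to 13.4% of 3′ UTR peaks, with the CDS share higher in 4 of 4 lists. Between 1.91% and 2.91% of CDS peaks consisted of more than 1 exonic block, against 0.35% to 0.97% of 3′ UTR peaks. RNA was fragmented before pull-down, so a peak marks a neighbourhood and not a base.

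The fold values of CDS peaks were coarse. Between 53.8% and 60.2% of a list's CDS peaks had a fold enrichment that at least 10 peaks of that list shared to the last digit. The value 11.2 alone stood at 128 of the 1622 CDS peaks of HSC3 control cells, and the 1622 peaks took 550 distinct values. Peaks with a repeated value recurred less often. Between 17.9% and 24.8% of them overlapped a peak of the other treatment in the same line, against 35.4% to 41.8% of CDS peaks with a value that was not repeated. In HSC3 control cells, values such as 11.2, 22.4, 33.6 and 44.9 lay at nearly even steps. In HSC3 rapamycin cells 10.9, 21.9 and 32.8 did so. The CDS medians of these lists, 33.6 and 32.8, lay on such steps. Whether the input stood at a floor at such peaks was not tested, also for the sites ranked by fold below. The read depth behind the fold values is unknown.

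Fold enrichment was lower on transcripts with more RNA-seq reads. CPM is not divided by transcript length, so it is used here as the number of reads per gene. Among genes in the upper quartile of mean log2 CPM, the median CDS fold was 22.4, 21.9, 28.1 and 24.1 in the list order above, and among genes below the median it was 44.9, 49.2, 54.25 and 62.95. Spearman's rank correlation between fold and mean log2 CPM lay between −0.28 and −0.25 over the CDS peaks of a list (n = 1230 to 1592) and between −0.22 and −0.15 over 3′ UTR peaks. Peaks of one gene share that gene's CPM, so these values describe the lists and carry no test.

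Position was read along the whole RefSeq gene (GRCh38.p14; the deposited peaks are on hg38), introns included, from the 5′ end. Between 97.6% and 98.4% of CDS peaks fell inside a gene of the same name. Their median position was at 71.8%, 71.0%, 70.5% and 68.8% of the gene in the list order above, upstream of the 3′ UTR peaks at 94.7% to 95%. The final 20% of the gene held between 37.7% and 40.4% of CDS peaks and the first 20% between 12.4% and 13.2%. The median distance to the gene's 3′ end was between 5994 and 7116 bp for CDS and between 1722 and 1738 bp for 3′ UTR peaks. CDS peaks in the final 20% had a median fold of 33.6, 32.8, 42.6 and 37.15 in the list order above. Those in the first 20% had 30.8, 30.1, 29.8 and 40.2. The final 20% was thus higher in each list but CAL33 rapamycin, and this was not tested.

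Most CDS peaks were called in a single list. Merging CDS peaks that overlapped by at least 1 bp on one strand gave 4070 sites. Of these, 2896 (71.2%) were listed once, 740 (18.2%) in 2 lists, 303 (7.44%) in 3 lists and 131 (3.22%) in all 4 lists. The 3′ UTR peaks merged in the same way gave 3725 sites, of which 76.1% were listed once and 94 (2.52%) in all 4 lists. Of all overlaps of a CDS peak with a peak of another list, 94.1% were with a CDS peak and 4.54% with a 3′ UTR peak.

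The number of lists that held a site rose with the −log10 of the authors' p-value and not with the fold. The median −log10 p of the peaks was 15.7 at sites of 1 list, 19.6 at 2, 25 at 3 and 55.6 at 4. The median fold was 35.5, 33.6, 32.2 and 33.6 in the same order. Median length was 210, 211, 240 and 270 bp, and the median RNA-seq level of the gene was 5.33, 5.65, 5.78 and 6.58 log2 CPM. Merging at 1 shared bp itself favours longer peaks. These medians describe the sites, and the reads behind each peak are not known.

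**Figure D2:**
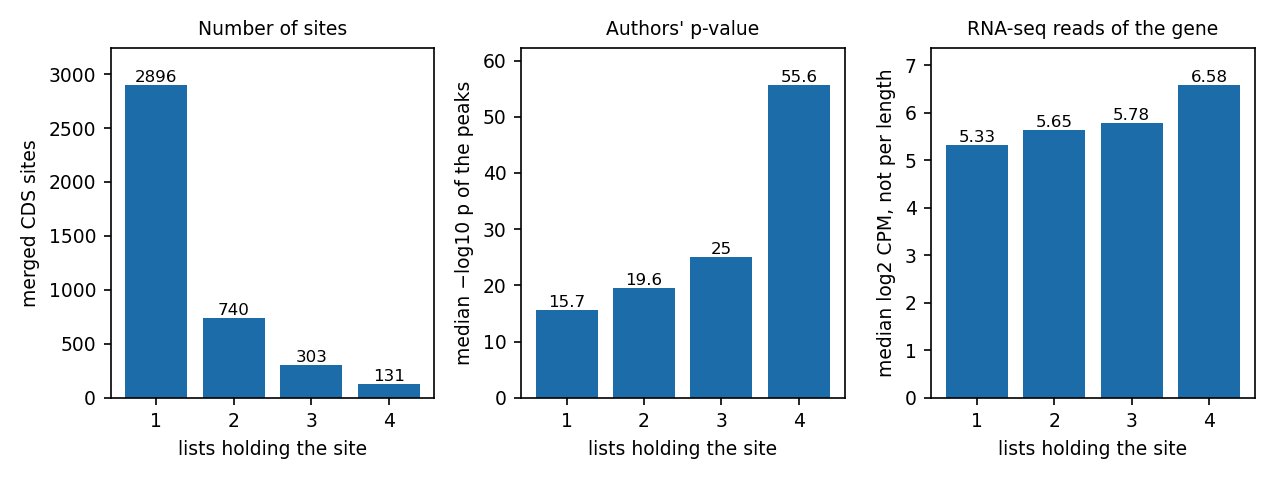
Merged CDS sites by the number of peak lists that hold them, on the horizontal axis of each panel. Bars give the number of sites (left), the median −log10 p of their peaks as given by the authors (middle) and the median log2 CPM of the gene in RNA-seq (right), which rise from 15.7 to 55.6 and from 5.33 to 6.58 between 1 and 4 lists.

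A treated CDS peak found a control peak in the same line in fewer than 1 of 3 cases. In HSC3, 516 of 1635 rapamycin CDS peaks overlapped a control peak of any class (31.6%, 95% Wilson interval 29.4% to 33.9%). In CAL33, 401 of 1263 did (31.7%, 29.2% to 34.4%). In the reverse direction the shares were 30.3% (28.1% to 32.6%) of HSC3 control and 25.7% (23.6% to 28.0%) of CAL33 control CDS peaks. These intervals cover counting error only. Overlap across cell lines was of like size, with 28.1% of HSC3 control CDS peaks overlapping a CAL33 control peak and 24.8% of HSC3 rapamycin CDS peaks overlapping a CAL33 rapamycin peak.

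CDS peaks recurred slightly more often than 3′ UTR peaks. The share overlapping the other treatment was higher for CDS in 4 of 4 lists, by 3.21, 5.0, 2.29 and 3.37 percentage points (mean 3.47 ± 1.13, SD, n = 4 lists, exact two-sided sign-flip permutation p = 0.13, again the smallest possible). CDS peaks longer than 300 bp overlapped the other treatment in 55.9% to 66.1% of cases, against 20.7% to 27.8% of shorter ones. An overlap needs only 1 shared bp, which a longer peak meets more easily, and the part of this was not tested. By RNA-seq level, 29.5% to 37.9% of CDS peaks in the upper quartile of genes overlapped, against 17.2% to 21.4% below the median.

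At 117 sites a single HSC3 control CDS peak overlapped CDS peaks of the other 3 lists. Ranked by the lowest percentile that a site reached in any list, the first 8 of the 117 lay on PWWP2B, DIDO1 (at 2 positions), IRS4, SPRED2, MIS12, PPM1B and TACC2. Among all 131 merged sites, those of RAI1 (lowest percentile 65.6) and CLIP2 (64.9) also stood above the second DIDO1 site (61.5). PWWP2B encodes a PWWP-domain protein, and its site on chromosome 10 (plus strand, 132405008 to 132406229) had a fold of 303 in HSC3 control, 443 in HSC3 rapamycin, 924 in CAL33 control and 281 in CAL33 rapamycin cells. The lowest of these stood at percentile 93.9 of its list. DIDO1 encodes a chromatin reader, and its first site on chromosome 20 (minus strand, 62879147 to 62880316) had a fold of 852, 194, 358 and 121 in the same order of lists. At both positions of DIDO1 the CAL33 value was lower with rapamycin. The second, at 62881455 to 62881815, had a fold of 56.1, 51.3, 121 and 58.9.

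IRS4 encodes an insulin receptor substrate, and its site on the X chromosome (minus strand, 108734311 to 108734520) had a fold of 695, 900, 204 and 99.1 in the list order above. IRS4 mRNA had too few counts to be tested, with 2 counts in rapamycin replicate 1 and 0 in the other 3 RNA-seq libraries. SPRED2, an inhibitor of Ras to ERK signalling, had a fold of 123, 115, 489 and 113 on chromosome 2 (minus strand, 65313817 to 65314087). MIS12, a kinetochore subunit, had 156, 82.3, 277 and 281 on chromosome 17 (plus strand, 5489087 to 5489564). SPRED2 was highest in CAL33 control cells, and MIS12 was higher in both CAL33 lists than in both HSC3 lists.

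PPM1B, a metal-dependent protein phosphatase, had a fold of 107, 58.2, 353 and 1630 on chromosome 2 (plus strand, 44201226 to 44201945), and the last is the highest of all CDS peaks of CAL33 rapamycin cells. TACC2, a centrosomal coiled-coil protein, had 107, 93.0, 85.1 and 129 on chromosome 10 (plus strand, 122211153 to 122211662), the narrowest range of the 8 sites. The highest CDS peak of the other lists was on HIC2, a transcriptional repressor, in HSC3 control cells (fold 2560), on KAT6A, a histone acetyltransferase, in HSC3 rapamycin cells (1950) and on ZNF48, a zinc finger protein, in CAL33 control cells (2030). Only the KAT6A and PPM1B sites among these were listed in all 4 lists. KAT6A had 14.6 in HSC3 control, 33.2 in CAL33 control and 122 in CAL33 rapamycin cells. The HIC2 site was at 1080 in HSC3 rapamycin and 12.8 in CAL33 control cells with no CAL33 rapamycin peak, and the ZNF48 site had its only other peak in HSC3 rapamycin cells (87.5).

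At the 131 sites of all 4 lists, on 121 gene names, the change of fold with rapamycin did not go together in the 2 cell lines. The fold of a site in a list is that of its highest peak there. Peaks were joined into a site by chains of overlap, so the highest peaks of different lists need not overlap each other. The median log2 ratio of rapamycin to control fold was −0.21 in HSC3 and −0.57 in CAL33. The ratio was above 0 in both lines at 26 sites, below 0 in both at 44 and opposite at 61. Relative to each line's median, 66 sites (50.4%) lay on the same side, and the correlation of the ratios across sites was −0.02 (Pearson) and 0.0009 (Spearman). The fold itself correlated between lists, on the log2 scale, with r between 0.28 and 0.45 over the 6 pairs of lists. Sites are not replicates and each list is 1 library pair, so these values carry no test.

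**Figure D3:**
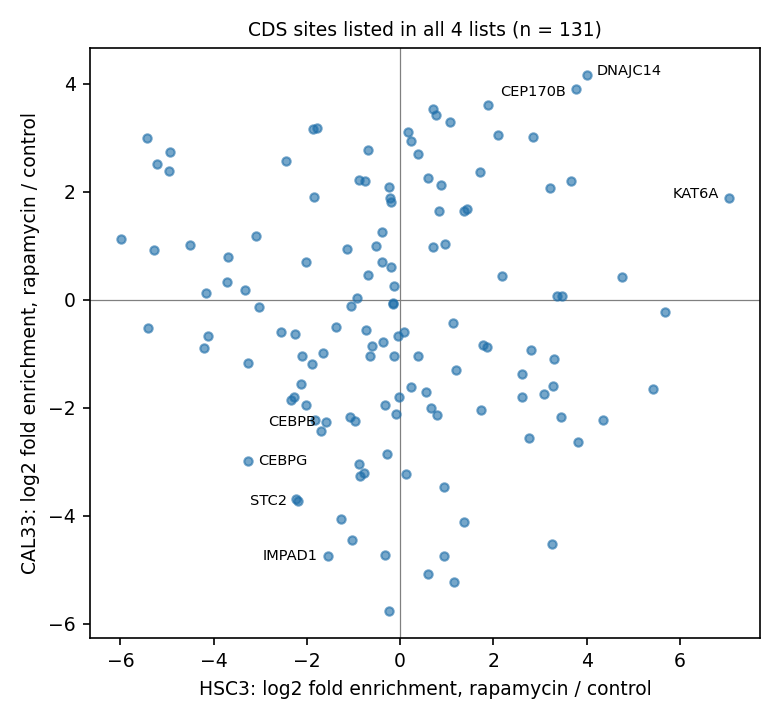
Each point is 1 of the 131 CDS sites listed in all 4 lists, with the log2 ratio of rapamycin to control fold enrichment in HSC3 on the horizontal and in CAL33 on the vertical axis. The points fill all 4 quadrants, with 26 sites above 0 and 44 below 0 in both lines and 61 in opposite quadrants.

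At least 2-fold changes in one direction in both lines were found at 29 of these sites, 12 higher and 17 lower, and 26 sites changed at least 2-fold in opposite directions. DNAJC14, a co-chaperone of the endoplasmic reticulum, had a fold of 15.3 without and 245 with rapamycin in HSC3 and of 12.7 and 228 in CAL33. CEP170B, a centrosomal protein, went from 13.1 to 180 and from 21.3 to 316. CEBPG, a partner of ATF4 in the stress response, went from 497 to 51.8 in HSC3 and from 51.1 to 6.43 in CAL33. STC2, a secreted stanniocalcin induced by stress, went from 452 to 98.8 and from 221 to 16.7. These 4 were chosen after their values were seen, and no replicate gives an error to them. At overlapping CDS peaks of control and rapamycin in general, the log2 ratio had quartiles of −1.80 and 1.67 in HSC3 (506 pairs) and −1.87 and 1.33 in CAL33 (420 pairs), so a 2-fold change in 1 line was common.

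Sites gained or lost with rapamycin at one position in both lines were a small part of the CDS peaks. In HSC3, 1119 rapamycin CDS peaks (68.4%) overlapped no control peak, and in CAL33 862 (68.3%) did not. These coincided at 105 positions on 109 genes. Control CDS peaks without a rapamycin partner numbered 1130 (69.7%) in HSC3 and 1148 (74.3%) in CAL33, and coincided at 142 positions on 138 genes. The smaller of the 2 folds at a position had a median of 15.7 among gained and 17.0 among lost positions.

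Among gained positions the highest smaller fold was on KDM6B, a demethylase of histone H3 lysine 27, on chromosome 17 (plus strand), at 324 in HSC3 and 689 in CAL33. TGIF2, a homeodomain corepressor, followed with 364 and 201, PARP8, an ADP-ribosyltransferase, with 126 and 126, and ZNF644, a zinc finger protein, with 112 and 198. KDM6B mRNA was 95.9 and 145 CPM with rapamycin and 48.1 and 50.7 CPM in control replicates 1 and 2 (blocked log2 change 1.25, adjusted p = 0.0052 from edgeR). TGIF2, PARP8 and ZNF644 mRNA did not pass the threshold with or without the replicate block.

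Among lost positions the highest smaller fold was on SOWAHC, an ankyrin-repeat protein, at 327 in HSC3 and 328 in CAL33. USP31, a deubiquitinase, had 230 and 1800, RBBP8NL 303 and 217, and DDN, a dendrin known from neurons and podocytes, 202 and 204. DDN mRNA was 1.26 and 1.87 CPM with rapamycin and 4.20 and 5.58 CPM in controls, and its blocked change of −1.65 on the log2 scale did not pass (adjusted p = 0.0578 from edgeR). RBBP8NL was at 3.73 and 11.3 CPM with rapamycin and 3.46 and 18.1 CPM in controls (blocked log2 change −0.31, adjusted p = 0.71 from edgeR). Both transcripts were thus among those with few reads, at a fold in the upper part of their lists.

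mRNA was then compared between rapamycin and control over all genes with enough counts. Without a block, 0 of 15826 genes (0%) passed an adjusted p of 0.05 by the quasi-likelihood test of edgeR, 446 genes lay below 0.05 before adjustment, and DESeq2 called 42. Once the replicate number entered as a block, 736 genes (4.65%) were higher and 554 (3.50%) lower with rapamycin, and these shares are the background for the counts that follow. Fewer cells of a kind and less RNA per cell cannot be told apart in bulk RNA. If the labelled cell lines are right for RNA-seq, treatment and cell line cannot be told apart either.

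Genes with a CDS peak moved little as a group. Of the 2704, 2594 were tested, with a median log2 change of −0.08 without the block and −0.10 with it, against 0.06 and 0.05 over all genes. With the block, 107 (4.12%) were higher and 124 (4.78%) lower. With upper-quartile normalization the medians were −0.011 and 0.13, so the distance from all genes was kept while the zero moved. Genes with a 3′ UTR peak and no CDS peak had a median of −0.06, and genes with no peak 0.12. The difference was not even over RNA-seq levels. Among genes above the median of mean log2 CPM, the median change was −0.10 for the 1853 genes with a CDS peak and −0.09 for the 6060 without. Below it, genes with a CDS peak had the lower median in each of the 5 deciles, from 0.17 against 0.43 in the lowest to −0.14 against 0.09 in the fifth. The share with a CDS peak rose from 2.53% in the lowest decile of genes to 25.5% in the ninth.

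**Figure D4:**
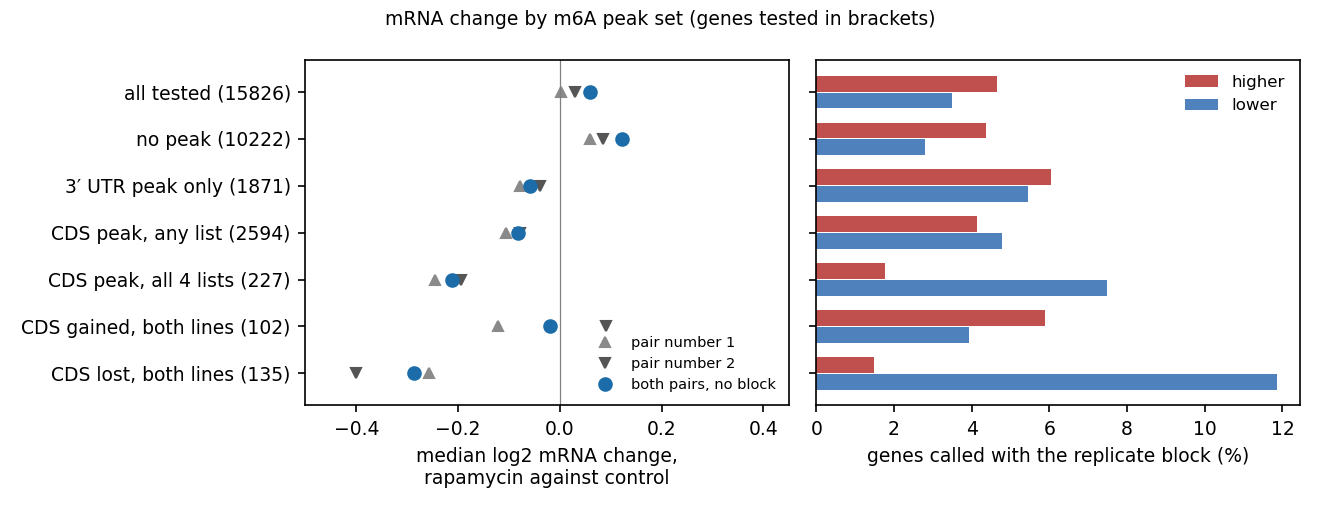
Left, median log2 mRNA change with rapamycin for sets of genes by m6A peak, within each numbered pair (triangles) and over both without a block (circles). Right, percent of each set called higher or lower with the replicate block. Genes with a CDS peak lost in both lines had a median of −0.29 and 11.9% called lower, against 3.50% of all genes.

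The 227 tested genes with a CDS peak in all 4 lists had a median change of −0.21, and with the block 4 (1.76%) were higher and 17 (7.49%) lower. Among genes above the median RNA-seq level the share lower was 7.62% (16 of 210), against 5.71% of the genes without a CDS peak. FEN1, the flap endonuclease of DNA replication, was 146 and 43.9 CPM with rapamycin against 276 and 174 CPM in control replicates 1 and 2. Within each number the rapamycin value was lower, and with the block the log2 change was −1.45 (SE 0.29, adjusted p = 0.0039 from edgeR). ARHGAP11A was 82.8 and 42.9 against 233 and 96.2 CPM (blocked log2 change −1.33, adjusted p = 0.0028 from edgeR). FAM111B, a protease, was 42.9 and 6.25 against 71.4 and 36.2 CPM (−1.60, adjusted p = 0.030 from edgeR). The proliferation antigen MKI67 also fell with the block, by 1.23 on the log2 scale.

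Of the 4 rises, CLIP2, a microtubule plus-end protein, was 79.3 and 77.5 CPM with rapamycin against 43.5 and 24.1 CPM in controls (blocked log2 change 1.27, adjusted p = 0.0075 from edgeR). CEBPB, a transcription factor of inflammation and differentiation, was 186 and 304 against 117 and 94.8 CPM (1.17, adjusted p = 0.012 from edgeR). STC2 was 331 and 169 against 98.4 and 121 CPM (1.12, adjusted p = 0.028 from edgeR), and the 4th was HELZ2. Each of the 4 was higher with rapamycin in both numbered pairs, as were 5472 of all 15826 genes tested. The highest fold of the site in all 4 lists was lower with rapamycin in both lines for CLIP2 (387 to 120 and 332 to 61.6), CEBPB (25.9 to 8.59 and 11.8 to 2.45) and STC2. For CLIP2 in CAL33 these values come from different positions. The control peak ran from 74376023 to 74376413 and the rapamycin peak from 74376593 to 74376773. The test in edgeR without the block made none of these mRNA calls. Fold has input RNA as its denominator, so it is not independent of the mRNA level.

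Of the genes that fell with the block, FAM83D, CHAF1A, SGO2 and PPP4R3A had a higher fold with rapamycin in both lines, USP1 and SON a lower one, and FEN1, CDK12, EIF4G1 and FOXM1 moved in opposite directions. FAM83D, a spindle protein, had a fold of 3.31 without and 14.1 with rapamycin in HSC3 and of 14.7 and 121 in CAL33. CHAF1A, a histone chaperone of DNA replication, had 31.3 and 115 in HSC3 and 15.5 and 188 in CAL33. USP1, a deubiquitinase of DNA repair, fell in mRNA and its site had a lower fold in both lines (16.4 to 3.36 and 24.4 to 6.97). Over the 129 sites with a tested gene, the log2 fold ratio and the blocked mRNA change correlated with r = −0.12 in HSC3 and −0.32 in CAL33, and over all overlapping CDS pairs with r = −0.07 (490 pairs) and −0.23 (407 pairs). Sites of one gene share its mRNA value, and the correlations are given as a description. Input RNA is the denominator of the fold, so a change in mRNA can itself shift the fold the other way. The part of this in the correlations was not tested.

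Genes with a gained CDS position in both lines had a median mRNA change of −0.02 over 102 tested genes, with 6 (5.88%) called higher and 4 (3.92%) lower under the block. JUNB, an AP-1 transcription factor, was among the 6, at 238 and 327 CPM with rapamycin and 86.9 and 81 CPM in controls (blocked log2 change 1.73, adjusted p = 0.00047 from edgeR). Genes with a lost CDS position had a median of −0.29 over 135 tested genes, with 2 (1.48%) higher and 16 (11.9%) lower. HMGCS1, of sterol synthesis, was among the 16, at 42.6 and 53.0 CPM with rapamycin and 88.8 and 141 CPM in controls (blocked log2 change −1.23, adjusted p = 0.0055 from edgeR). Among genes above the median RNA-seq level, the lost set had a median of −0.31 and 15 of 113 genes (13.3%) lower, where 5.71% of the genes without a CDS peak were lower. A transcript with fewer reads also yields fewer peaks, and its part in these counts was not tested. The same direction was known for lost peaks of all classes in these data before this set was made.

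Gene lists were compared by how many of their tested members carried a CDS peak, against 16.4% of all 15826 genes in at least 1 list and 1.43% in all 4 lists. No list was given a test, and the lists were chosen with earlier results of these data known. The fold given for a gene is that of its highest CDS peak in a list, and these peaks need not lie at one position. Chromatin regulators stood highest, with 35 of 40 genes (87.5%) in at least 1 list and 14 (35.0%) in all 4. For 3′ UTR peaks the same list had 15 of 40 (37.5%), against 17.4% of all genes. The list's median RNA-seq level was 6.73 log2 CPM, against 4.09 over all genes, and 20.2% to 25.5% of genes in the upper 5 deciles carried a CDS peak. The medians of the other lists ran from 5.46 (mTOR signalling) to 8.08 log2 CPM (squamous junction and plakin), also above that of all genes. The parts of RNA-seq level and of coding length in the difference from all genes were not tested.

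The 14 chromatin genes in all 4 lists were KMT2A, KMT2D, SETD1B, NSD1, ASH1L, EP300, ARID1A, ARID1B, ASXL1, MGA, CHD7, SRCAP, KAT6A and PHF3. MGA, a MAX dimerization factor of a Polycomb complex, had its highest fold at 140 in HSC3 control, 76.6 in HSC3 rapamycin, 268 in CAL33 control and 159 in CAL33 rapamycin cells. CHD7, a remodeller of nucleosomes, had 107, 323, 68.1 and 75 in the same order. PHF3, a regulator of RNA polymerase II elongation, carried 4, 4, 3 and 4 CDS peaks in the lists, with a highest fold of 344, 407, 117 and 49.3. Of the list, 3 genes were higher and 1 lower in mRNA with the block, KDM6B among the former.

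**Figure D5:**
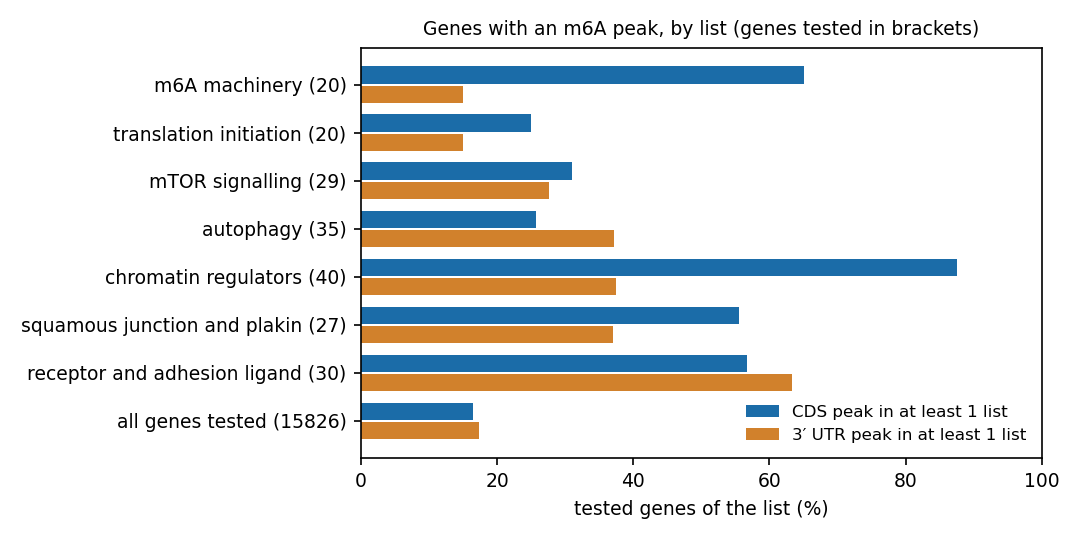
Percent of the tested genes of each list that carried a CDS peak or a 3′ UTR peak in at least 1 of the 4 peak lists. Chromatin regulators reached 87.5% for CDS peaks and 37.5% for 3′ UTR peaks, and all tested genes 16.4% and 17.4%.

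The m6A machinery itself carried CDS peaks on 13 of 20 genes (65.0%), and 3′ UTR peaks on 3. In all 4 lists these were RBM15, YTHDF2 and VIRMA. RBM15, the adaptor that brings the writer to RNA, had 13 CDS peaks, and its highest fold was 186, 194, 431 and 69.7 in the list order above. YTHDF2 had 19.2, 17.2, 133 and 126, a value that was higher in both CAL33 lists than in both HSC3 lists. VIRMA, the scaffold of the writer, had 46.7, 7.42, 63.8 and 56.3, but both control peaks lay at one position and both rapamycin peaks at another, so that it counts as lost at the first and gained at the second. METTL14 had a CDS peak in HSC3 control cells alone (fold 22.4) and METTL3 in none of the lists. ALKBH5 had a CDS peak in both control lists (6.54 and 33.7) and in neither rapamycin list. It was nevertheless not among the genes with a CDS position lost in both lines. ALKBH5 mRNA fell by 0.94 on the log2 scale with the block (adjusted p = 0.027 from edgeR).

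In translation initiation, 5 of 20 genes (25%) carried a CDS peak, and EIF4G1 and EIF3A did so in all 4 lists. The median RNA-seq level of this gene list was 7.58 log2 CPM, and 23.6% of genes in the highest decile carried a CDS peak. EIF4G1, the scaffold of the cap-binding complex, had a fold of 4.32 and 3.79 in HSC3 and of 9.63 and 33.9 in CAL33 without and with rapamycin. In HSC3 its control peak ran from 184321584 to 184321973 and its rapamycin peak from 184321405 to 184321614, so they shared only a short part. EIF3A, the largest eIF3 subunit, had 3.95 and 6.84 in HSC3 and 10.9 and 2.49 in CAL33. All 8 values stood at or below the median of their list. EIF2AK3, the kinase PERK, had a single CDS peak in HSC3 rapamycin cells (30.1). With the block 1 gene of this list was higher and 3 lower in mRNA.

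In mTOR signalling, the pathway that rapamycin inhibits, 9 of 29 genes (31.0%) carried a CDS peak. IRS1, the insulin receptor substrate, did so in all 4 lists with a highest fold of 157, 73.8, 366 and 45.6, lower with rapamycin in both lines, although the highest peaks of the CAL33 lists lay at different positions. IRS2 had 191 in HSC3 control, 271 in HSC3 rapamycin and 110 in CAL33 rapamycin cells, at different positions. IRS2 mRNA was 62.5 and 24.4 CPM with rapamycin and 42.3 and 6.04 CPM in controls (blocked log2 change 1.26, adjusted p = 0.031 from edgeR). MIOS, of the amino acid sensing GATOR2 complex, had 269, 18.5 and 132 in the first 3 lists, each at another position.

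In autophagy, 9 of 35 genes (25.7%) carried a CDS peak and none did so in all 4 lists, while 13 (37.1%) carried a 3′ UTR peak. PIK3R4, the regulatory subunit of the autophagy lipid kinase, had 60.1 in HSC3 control, 584 in CAL33 control and 58.9 in CAL33 rapamycin cells. ATG101 and RB1CC1, subunits of the ULK1 initiation complex, had a CDS peak in each list but HSC3 control, of 20.5, 10.6 and 13.4 for ATG101 and 8.62, 5.47 and 24.1 for RB1CC1. With the block 6 autophagy genes were higher in mRNA (ULK1, WIPI1, GABARAPL1, NBR1, OPTN and CALCOCO2) and none of the 6 carried a CDS peak. Most other genes of the list carried none either, and ULK1 had a 3′ UTR peak in 3 lists.

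CDS peaks of PLEC and AHNAK were many and of low fold. PLEC, a cytolinker of hemidesmosomes, carried the most, 34 in all (8, 10, 12 and 4 in the list order above), which fell into 15 sites with folds from 1.41 to 126 and a median of 3.675. PLEC was at 3591 and 1653 CPM with rapamycin and 2340 and 1846 CPM in controls (blocked log2 change 0.23, adjusted p = 0.66 from edgeR). AHNAK, a giant scaffold protein, carried 21 peaks (5, 6, 6 and 4) at 14 sites, with a median fold of 3.87 and a highest of 15.2. FAM83H, a regulator of keratin organization, carried 21 (4, 4, 9 and 4) at only 2 sites, with a median fold of 27.5. EPPK1, the keratin-binding epiplakin, stood out by cell line, with 1 and 0 CDS peaks in HSC3 and 11 and 6 in CAL33 and a median fold of 70.65. EPPK1 mRNA was 15.0 and 143 CPM with rapamycin and 7.48 and 64.4 CPM in control replicates 1 and 2 (blocked log2 change 1.08, adjusted p = 0.017 from edgeR).

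Of the squamous junction and plakin genes, 15 of 27 (55.6%) carried a CDS peak and 10 a 3′ UTR peak. Of receptors and adhesion ligands, 17 of 30 (56.7%) carried a CDS peak and 19 (63.3%) a 3′ UTR peak. JAG1, a Notch ligand, had a CDS fold of 20.3, 172, 487 and 144 at one site in all 4 lists, and FAT1, a giant protocadherin, had a highest fold of 202, 35.5, 25.5 and 37.5 at different positions. CELSR1, a planar polarity cadherin, had 54.7 in HSC3 rapamycin, 149 in CAL33 control and 209 in CAL33 rapamycin cells. No gene of the 3 passed the mRNA threshold.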

How the data were processed

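RNA-seq (4 libraries) and MeRIP-seq (8 libraries) of OSCC cells were analysed from deposited values. The authors deposited unnormalized HTSeq counts for 58302 Ensembl identifiers. They also deposited 1 peak list for each pair of immunoprecipitated RNA and input, called separately, which gives fold enrichment (a ratio) and the log10 of the p-value and of the false discovery rate. The submitters' processing notes name cutadapt 2.5, HISAT2 2.1.0, featureCounts 1.6.3, HOMER 4.10.4 and hg38 without roles. The peak caller and its settings are not given in the sources used here. Depth of the MeRIP-seq libraries is unknown, so fold values have no counting interval.

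Counts were tested in R 4.3.3 with edgeR 4.0.16 (filterByExpr, TMM, quasi-likelihood test, Benjamini-Hochberg adjustment at 0.05), rapamycin against control. Of the 15826 genes kept, 15710 matched a symbol. CPM are counts scaled by TMM library sizes. Nothing states that same-group libraries came from separate cultures, so p-values measure only the spread between these libraries. The replicate numbers were checked for pairing: differences between numbers 1 and 2 correlated between treatments (r = 0.90 across genes). What the numbers stand for in RNA-seq was not tested: in MeRIP-seq they mark the cell line, and the RNA-seq labels give cell lines by treatment instead. The blocked fit is given beside the mRNA results.

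Peaks were placed in Python 3.11.15 by exonic blocks, counted from 1, and overlapped by at least 1 bp on one strand. A percentile is a peak's rank by fold among all peaks of its list. Between 4.44% and 5.20% of the CDS peaks of a list overlapped another peak of that list, often from overlapping genes, and both were kept. Classes were compared by an exact sign-flip permutation test over the 4 lists (scipy 1.17.1), and shares by Wilson intervals. Scripts were tested on simulated data with known answers.

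The members, gene lists and tests were chosen with earlier results of these data known. Named were EIF4G1, the 8 sites with the highest lowest percentile among the 117 where CDS peaks of all 4 lists overlapped one HSC3 control peak, the 4 gained and 4 lost positions with the highest smaller fold, the 3 genes with most CDS peaks, the highest CDS peak of each list, up to 3 genes of each gene list by number of lists, and the 3 largest rises and falls (mean of at least 1 log2 CPM) among genes with a CDS peak in all 4 lists. Other genes were named after their values were seen. Alternatives were DESeq2 1.42.0, upper-quartile normalization, other count filters, the block, each library or list left out, stricter peak thresholds and other overlap rules. The score column, which repeats the p-value, was not used.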

Additional observations from a re-analysis of the deposited data

Results flagged for a closer look

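The following values moved in opposite directions with rapamycin in HSC3 and CAL33. With 1 pair of MeRIP-seq libraries for each line and treatment, none of these differences was tested.

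Rapamycin minus control, the number of CDS peaks was 13 in HSC3 and −283 in CAL33, where the whole list went from 3625 to 3079 peaks.

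On the log2 scale, the ratio of rapamycin to control fold at the CDS site of EIF4G1 was −0.19 in HSC3 and 1.82 in CAL33. The HSC3 ratio compares largely different stretches, since its 2 peaks shared only a short part. Among the named sites in all 4 lists it was 0.55 and −1.72 for PWWP2B, 0.37 and −1.04 for IRS4, −0.92 and 0.021 for MIS12, −0.88 and 2.21 for PPM1B and −0.20 and 0.60 for TACC2, HSC3 first. The 131 sites in all 4 lists held 61 with opposite directions, so these sites are not unusual among them.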

How the results depend on the processing

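The mRNA comparison depended most on the block. It called 0 genes without the replicate block, 1290 with it and 42 with DESeq2, which left 6750 genes without an adjusted p. The count was 0 with upper-quartile normalization, with no filter on low counts, with at least 10 counts in every library and with each library left out, where the lone library is assumed to vary like the others. The median mRNA change of genes with a CDS peak was −0.08, moved to −0.011 with upper-quartile normalization, where the median of all genes moved from 0.06 to 0.13, and ranged from −0.17 (without rapamycin replicate 2) to −0.027 (without control replicate 1) with each library left out. With the block it was −0.10. For the lost CDS positions the median was −0.39 to −0.18 with each library left out, and 12 of 111 tested genes were lower when an overlap of 50% of the shorter peak was required.

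Overlap of rapamycin with control CDS peaks was 31.6% in HSC3 and 31.7% in CAL33. It was 26.5% and 27.2% when 50% of the shorter peak had to be shared, 28.8% and 27.8% between lists of one size, and 44.0% and 45.1% when genes were counted.

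On average over lists, the lower fold and the higher overlap of CDS against 3′ UTR peaks kept their direction under each alternative tried. The mean log2 difference in fold was −0.29 at a false discovery rate of at most 0.05 and −0.14 at a fold of at least 4. At the latter the exact two-sided sign-flip permutation p was 0.25, so the lower fold did not hold in all 4 lists. Leaving out 1 list gave −0.21 to −0.08, the latter without CAL33 control, so that list carries much of the difference. A window of 100 central bases was not run, since it needs a genome. MeRIP-seq depth limits all fold values to an unknown degree.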

Other observations

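Some CDS peaks lay on genes with hardly any RNA-seq reads. Of the 2704 genes with a CDS peak, 110 (173 peaks) had too few counts to be tested, and 3 of these carried a CDS peak in all 4 lists. TICAM2, an adaptor of Toll-like receptor signalling, had a fold of 11.2, 115, 204 and 214 with 0 to 3 counts in a library, and IRS4 is described above. DNAAF4-CCPG1, a read-through transcript that shares exons with its neighbours, had 6.07, 42.4, 18.1 and 4.65 with 0 counts in each library. TICAM2 shares peaks with the read-through transcript TMED7-TICAM2, and the counting of overlapping genes was not tested. Immunoglobulin and matrix genes were also among the 110. IGKC had a fold of 370 in CAL33 control cells, with 0 to 9 counts in a library. VCAN had 50.5 in HSC3 control, 226 in CAL33 control and 161 in CAL33 rapamycin cells, with 0 or 1 counts. Both were chosen after their values were seen, and the source of such peaks was not tested.

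COL1A1, a fibrillar collagen, carried a CDS peak in all 4 lists (highest fold 443, 812, 204 and 37.5, at different positions) with mRNA at 29.3 and 28.4 CPM with rapamycin and 22.0 and 8.79 CPM in controls (blocked log2 change 1.04, adjusted p = 0.068 from edgeR). It was chosen after its values were seen.

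Transcripts of the mitochondrial genome carried 8 CDS peaks, 2 in HSC3 control, 4 in HSC3 rapamycin, 2 in CAL33 control and 0 in CAL33 rapamycin cells. Their fold ran from 1.47 (MT-ND5) to 14.6 (MT-ND6), below the median of each list. MT-CO2, a subunit of cytochrome c oxidase, had 1.50 in HSC3 control, 5.27 in HSC3 rapamycin and 2.18 in CAL33 control cells.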
